A study of Rattus norvegicus with 14 samples.

Results

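Collagens, laminins and integrins were described across fetal rat gonads as 53 genes, measured by 72 of the 15866 probe sets tested on each array. A gene was taken as a member when its symbol in the platform annotation had the form of a collagen chain, a laminin chain or an integrin chain, and when the probe set carried that symbol alone; the named probe sets of the arrays stood for 10411 genes in all. The members comprised 29 collagen genes (40 probe sets), 8 laminin genes (10 probe sets) and 13 integrin chain genes (18 probe sets). The pattern also caught 3 symbols that are no integrin chains, Itgb1bp1, Itgb1bp2 and Itgb3bp (4 probe sets). For 18 genes there was more than 1 probe set, and the one with the highest mean intensity stands for the gene unless another is named. The mean over all arrays was at least 50 intensity units for 45 of the 72 member probe sets and below that for 27.

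Collagens are triple helices of 3 chains that form the fibres, networks and filaments of the extracellular matrix. Laminins are crosses of an alpha, a beta and a gamma chain that, with the type IV collagen network, make up basement membranes such as the one that surrounds each testis cord and each blood vessel. Integrins are pairs of an alpha and a beta chain in the cell membrane that bind these proteins and link them to actin. In the fetal testis, Sertoli cells enclose the germ cells in cords, and a basement membrane is laid down between Sertoli cells and the peritubular cells outside; the fetal ovary forms looser clusters of germ cells and somatic cells.

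The arrays cover the testis and the ovary of rat fetuses at 3 ages, embryonic day 13, 14 and 16 (E13, E14, E16), in 6 groups, and a group of testes taken at E13 and cultured for 3 days, each with 2 arrays. Each RNA was a pool of 20 to 40 gonads, and the labels describe the pools of a group as different groups of gonads; no strain was named. In culture the gonads sat on floating Millicell CM filters over a medium to which insulin, transferrin, albumin (BSA), L-glutamine and antibiotics had been added, renewed on day 2; the labels name no genotype or drug for any group. Values are scaled intensities on a linear scale from single-colour Affymetrix arrays. A difference is a difference of group means of log2(intensity + 16), given ± its standard error, and passed when its limma p, adjusted by the Benjamini-Hochberg method over all 15866 probe sets, was under 0.05. All 7 groups shared 1 estimate of the spread, and precision is limited by having 2 arrays a group. In RNA of whole gonads, fewer cells of a type and less RNA per cell cannot be told apart.

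Sertoli cell genes (9 of 12 listed measured, none at 0 throughout) summed to 2496 to 3859 in E14 and E16 testis, above the 1073 to 1625 of the ovary arrays of those ages. At E13 their sums overlapped between testis (1197 and 961) and ovary (946 and 1012), so they do not check the sex of those pools. Fetal Leydig cell genes (7 of 7) summed to 4140 and 8055 in E16 testis, to 207 to 246 in the younger testes and to 138 to 207 in ovary. Some arrays stood apart from their labels or from their partners. Xist, the RNA made from an inactive X chromosome, read 36.2 in E13 testis replicate 1, 269 in E14 testis replicate 1 and 151 on the first cultured array. The other testis arrays read 1.5 to 4.8. In ovary, Xist read 12.8 in E16 replicate 2 and 152 to 672 elsewhere. Every call of a member or of a related gene was therefore also computed without those 4 arrays, which leaves groups of 1 array whose spread is taken from the others. The ratio of 3′ to 5′ actin signal, which grows as RNA breaks down, reached 3.34 on the first E16 ovary array and 2.97 on the second cultured array, and was 1.47 to 2.13 on the others; calls were also computed without these 2. The chip IDs in the labels fall into 3 series by their name part; both E13 ovary arrays lie in series 3, while the E14 and E16 ovary pairs are split between series 3 (replicate 1) and series 1 (replicate 2).

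A few promoters are shown because their genes carry the main differences or form a pair. The 250 bases before the annotated start of Col6a3, which rose with age, of Col6a1, whose product is its partner chain, and of Col9a1, which differed between the sexes, were read from RefSeq (GRCr8), as was the whole stretch of 76 bases between the start sites of Col4a1 and Col4a2, which lie head to head. A promoter entry was found for 42 of the 53 genes. Capitals mark CCTCCC and GGGCGG on either strand; CCTCCC was added after the sequences had been seen, and runs of it may overlap. The motifs TATAAA and, separately, CCAAT were searched as well.
Col6a1, chr20:11905440-11905689, plus strand: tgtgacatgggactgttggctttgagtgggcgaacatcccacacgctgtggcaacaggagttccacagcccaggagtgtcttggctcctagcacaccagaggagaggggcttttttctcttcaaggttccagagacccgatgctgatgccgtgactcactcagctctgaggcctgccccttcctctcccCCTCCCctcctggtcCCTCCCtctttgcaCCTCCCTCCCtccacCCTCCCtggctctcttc
Col6a3, chr9:98886959-98887208, minus strand: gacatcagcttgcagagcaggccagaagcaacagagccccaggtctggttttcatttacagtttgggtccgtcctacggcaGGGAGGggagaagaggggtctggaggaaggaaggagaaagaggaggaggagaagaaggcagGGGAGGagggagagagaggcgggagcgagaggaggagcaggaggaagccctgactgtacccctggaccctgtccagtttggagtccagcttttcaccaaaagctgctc
Col9a1, chr9:34081114-34081363, plus strand: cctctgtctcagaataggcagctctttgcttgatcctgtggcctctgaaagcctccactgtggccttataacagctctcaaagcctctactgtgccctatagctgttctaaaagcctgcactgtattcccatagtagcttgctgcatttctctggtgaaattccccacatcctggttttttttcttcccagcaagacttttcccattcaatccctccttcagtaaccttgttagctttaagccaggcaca
Col4a1 and Col4a2, between the starts, chr16:84885521-84885596: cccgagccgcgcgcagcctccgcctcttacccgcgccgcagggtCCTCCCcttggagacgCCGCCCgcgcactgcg
The Col6a1 window held 5 matches of CCTCCC, counting overlaps, and the Col6a3 window held 2 on the opposite strand, while 35.7% of all 33469 promoter windows of 250 bases held at least 1. Neither held TATAAA, present in 12.9% of the windows. The motif CCAAT, present in 34%, was in neither, and the same was true of GGGCGG, present in 30.5%. The Col9a1 window held 0 matches of the 4 motifs, which says only that these letters are not in it. The stretch between Col4a1 and Col4a2 held 1 match of GGGCGG (printed as CCGCCC) and 1 of CCTCCC, which occurred in 18.1% and 15.5% of windows of 76 bases, and its GC content was 78.9%.

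Across the 13 comparisons, few members passed, and those that did were collagens of the type VI, IX and XIV class with 1 laminin and 1 integrin chain. Between testis and ovary, 0 of 72 member probe sets passed at E13 (0.0126% of all probe sets passed), 0 at E14 (0.139% of all), 2 at E16 (1.74% of all) and 3 for the mean over the ages (2.31% of all). At an unadjusted p under 0.05, 9 members stood out at E13 (8 higher and 1 lower in testis) and 8 at E14 (6 higher and 2 lower), where 7.79% and 8% of all probe sets did. From E13 to E16, 2 members passed in testis (0.945% of all) and 2 in ovary (0.889% of all), and 2 passed between cultured and fresh E13 testis (1.39% of all). For the change of the sex difference from E13 to E16, limma called 0 members (0.145% of all); 5 had an unadjusted p under 0.05 (2 higher and 3 lower; 6.49% of all). In testis, 0 members passed from E13 to E14 (0.0693% of all) and 0 from E14 to E16 (0.12% of all), with 4 and 9 at an unadjusted p under 0.05 (7.19% and 5.16% of all). In ovary, 0 members passed in either step (0% of all in both), with 3 and 7 at an unadjusted p under 0.05 (4.28% and 6.15% of all). Between cultured testis and fresh E16 testis, 0 passed (0.0945% of all) and 2 had an unadjusted p under 0.05 (6.67% of all). Nothing particular to the members is read from these counts. The heat map of all 53 genes shows where the signals moved together.

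**Figure D1:**
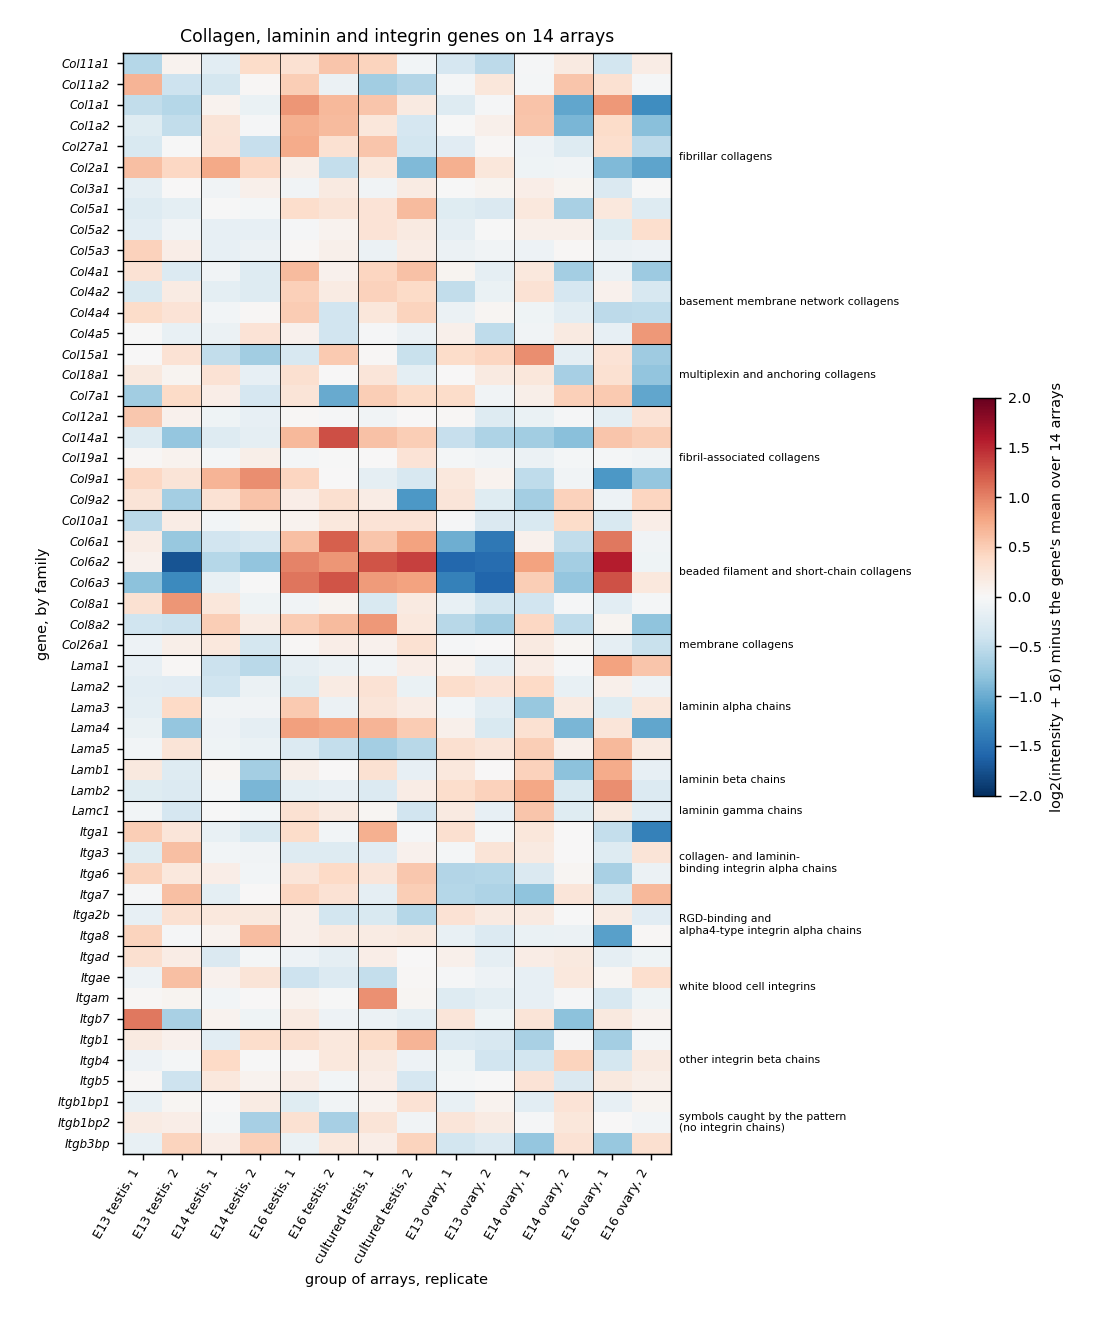
Each row is 1 of the 53 member genes and each column 1 of the 14 arrays, with colour for log2(intensity + 16) minus the gene's mean over the arrays. The type VI collagen rows (Col6a1, Col6a2 and Col6a3) are blue in both E13 ovary arrays and red in the E16 testis, cultured testis and first E16 ovary arrays, while Col9a1 is darkest blue in the E16 ovary arrays.

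The beaded filament and short-chain collagens held the largest changes with age. Type VI collagen forms beaded filaments around cells from its alpha1, alpha2 and alpha3 chains, which are encoded by Col6a1, Col6a2 and Col6a3. Col6a3 read 64.6 and 42.7 in E13 testis, 112 and 125 at E14 and 281 and 322 at E16. In ovary it read 39.7 and 31.1 at E13, 184 and 66.7 at E14, and 327 and 149 at E16. Every E16 array was above every E13 array in each sex. Col6a3 rose 4.61-fold from E13 to E16 in testis (log2 difference 2.21 ± 0.40, adjusted p = 0.0272) and 4.65-fold in ovary (2.22 ± 0.40, adjusted p = 0.0294). The difference between these increases was -0.01 ± 0.56 (adjusted p = 1), so at this spread the sexes could not be told apart for it. Between testis and ovary of the same age, the differences of Col6a3 were 0.43 ± 0.40, 0.07 ± 0.40 and 0.41 ± 0.40 at E13, E14 and E16, and 0 of them passed. With the chip series as a block, however, the differences between testis and ovary over the ages passed for Col6a1 (0.93, adjusted p = 0.031), Col6a2 (0.86, adjusted p = 0.0119) and Col6a3 (0.80, adjusted p = 0.0451). Of all probe sets, 1.38% passed in that comparison. The E14 and E16 ovary pairs, in which the pool and the chip series cannot be told apart, enter that block. The differences of Col6a2 also passed then at E13 (1.55, adjusted p = 0.041) and at E16 (0.98, adjusted p = 0.0251). In those comparisons 0.0126% and 2.04% of all probe sets passed. At E13, Col6a2 read 52.6 and 3.5 in testis and 5.7 and 6.4 in ovary, so 1 testis array lay below both ovary arrays. Only the first testis array, which is of discordant Xist, shares chip series 3 with the ovary arrays. The readings of 3.5, 5.7 and 6.4 lie under the offset of 16. The second, dimmer probe set differed by 0.22 without the block.

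Col6a1 and Col6a2 also had their highest fresh means at E16 in each sex, with wider spreads. Col6a1 read 139 and 66.8, then 91 and 95.6, then 195 and 305 in testis at E13, E14 and E16, and 54.8 and 35.7, then 132 and 82.8, then 275 and 117 in ovary. Its differences from E13 to E16 were 1.20 ± 0.40 in testis (adjusted p = 0.255) and 1.70 ± 0.40 in ovary (adjusted p = 0.0834). Col6a2 read 52.6 and 3.5 in E13 testis and 113 and 103 at E16, against 5.7 and 6.4 in E13 ovary and 175 and 45.1 at E16. The E13 testis arrays of Col6a2 thus differed far more from each other than those of E16. Its differences were 1.76 ± 0.63 in testis (adjusted p = 0.302) and 2.29 ± 0.63 in ovary (adjusted p = 0.145), and neither passed. A second, dimmer probe set of Col6a2 read 6.8 to 53.3 over all arrays and differed by -0.16 and -0.08.

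With the series as a block, Col6a1, Col6a2 and Col6a3 all passed from E13 to E16 in testis (log2 differences 1.79, 2.55 and 2.72) and in ovary (2.14, 3.12 and 2.68), with adjusted p between 9.56e-05 and 0.00916; 1.59% and 1.27% of all probe sets passed in those fits. Within series 1, replicate 2 of E16 testis minus replicate 2 of E13 testis gave 1.95, 2.61 and 2.53. Within series 3, E16 ovary replicate 1 minus each E13 ovary array gave 2.04 and 2.49, 3.14 and 3.09, and 2.62 and 2.86. These ovary values all share that single E16 array, whose actin ratio of 3.34 was the highest. It read 275, 175 and 327 for Col6a1, Col6a2 and Col6a3, where E16 ovary replicate 2 read 117, 45.1 and 149. Without the block, the call of Col6a3 in testis was lost when either E13 or either E16 testis array or either E13 ovary array was left out (log2 1.98 to 2.43 over the 14 fits, adjusted p up to 0.21). In ovary it was lost without either E14 testis array, either E13 ovary array or E16 ovary replicate 1 (1.69 to 2.74, adjusted p up to 0.25). With an offset of 1 both were lost (2.50 and 2.62, adjusted p of 0.0556 and 0.0616). Without the 4 arrays of discordant Xist the differences of Col6a3 were 2.43 and 2.74 with adjusted p of 0.152 and 0.211, and without the 2 arrays of high actin ratio the ovary call was lost (1.69, adjusted p = 0.143). Smooth muscle and peritubular markers (10 of 10 measured, none at 0 throughout) summed to 1624 and 1658 in E13 testis and 2424 and 2767 in E16 testis, but to 1432 and 1525 in E13 ovary and 1071 and 1260 in E16 ovary. Their part in the result was not tested.

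The other short-chain collagens are network formers. Col8a2, a type VIII chain found in sheets beneath endothelium and cornea, read 69.1 and 67.5 in E13 testis and 144 and 158 in E16 testis, and 59.9, 54.3, 100 and 48.3 in the corresponding ovary arrays. Its differences were 0.98 ± 0.34 from E13 to E16 in testis (adjusted p = 0.285) and 0.95 ± 0.34 between testis and ovary at E16 (adjusted p = 0.251). Col8a1 and Col10a1 read at most 30.7 and 45.8 on any array. Over the 6 genes of this class, by their brightest probe sets, the median difference from E13 to E16 was 1.09 in testis (5 of 6 higher, 1 passed). In ovary it was 0.97 (6 of 6 higher, 1 passed), and the median over all probe sets was -0.02 in both. These figures rest on the brighter probe set of Col6a2. Its dimmer probe set gave -0.16 in testis and -0.08 in ovary, which would lower both medians and both counts of higher genes.

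**Figure D2:**
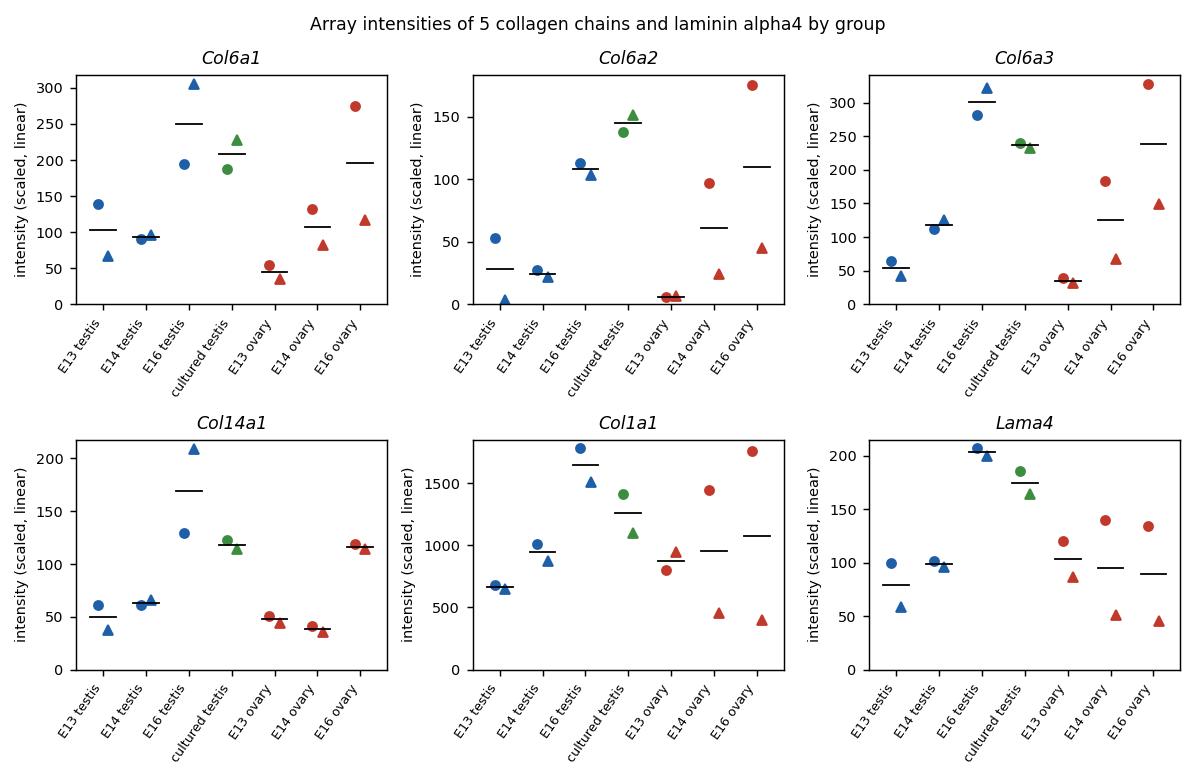
Each panel plots 1 gene, with scaled intensity on a linear axis from 0 against the 7 groups; circles are replicate 1, triangles replicate 2, and bars the mean of 2 arrays. Col6a3 lies between 31.1 and 64.6 in all 4 E13 arrays and between 149 and 327 in the E16 and cultured arrays, and the 2 ovary arrays of E14 and of E16 are far apart for every gene but Col14a1.

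Among the fibril-associated collagens, Col14a1 rose with age in testis and Col9a1 fell with age in ovary. Col14a1 encodes type XIV collagen, which binds to the surface of collagen fibrils in dense connective tissue. It read 60.9 and 37.9, then 60.8 and 65.6, then 129 and 209 in testis from E13 to E16, and 51.1 and 44.1, then 40.9 and 35.9, then 119 and 114 in ovary. All 4 E16 arrays were above all E13 and E14 arrays. Col14a1 rose 2.81-fold from E13 to E16 in testis (1.49 ± 0.23, adjusted p = 0.0122). In ovary the difference was 1.06 ± 0.23 with an adjusted p of 0.0623, which passed with the chip series as a block (1.18, adjusted p = 0.0376). A second probe set of Col14a1 differed by 1.12 and 0.93 in the same steps (adjusted p of 0.127 and 0.229). The testis call was lost without E13 testis replicate 2 or without E16 testis replicate 2 (log2 1.17 to 1.81 over the 14 fits, adjusted p up to 0.152), and without the 4 arrays of discordant Xist (1.75, adjusted p = 0.109).

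Col9a1, the alpha1 chain of type IX collagen, which sits on type II collagen fibrils, was the member with the lowest p between testis and ovary. Its testis arrays read 51.6 and 45.1 at E13, 65.3 and 81.5 at E14, and 52.7 and 35.3 at E16, while its ovary arrays read 42.8 and 37.5, then 19.8 and 32.3, then 7 and 13.9. The sexes overlapped in no age, and the ovary arrays were lower at each later age. Col9a1 was 2.26-fold higher in testis at E16 (1.18 ± 0.22, adjusted p = 0.022) and 1.77-fold higher over the 3 ages (0.82 ± 0.13, adjusted p = 0.00793). At E14 the difference was 1.10 ± 0.22 (adjusted p = 0.121) and at E13 0.20 ± 0.22 (adjusted p = 0.819). In ovary, Col9a1 fell 2.14-fold from E13 to E16 (-1.10 ± 0.22, adjusted p = 0.0464), while in testis the difference was -0.11 ± 0.22. The gap between the sexes was larger at E16 than at E13 by 0.98 ± 0.31, which did not pass (adjusted p = 0.47).

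Within the same chip batch, Col9a1 differed by 1.01 between the testis and ovary arrays of E14 and by 0.78 between those of E16. With the chip series as a block, the E16 difference was 1.02 (adjusted p = 0.0707) and the mean over ages 0.68 (adjusted p = 0.0758), so both calls were lost, while the fall in ovary passed (-1.21, adjusted p = 0.0376). That fall was lost with an offset of 1 (-1.91, adjusted p = 0.0616), with quantile normalization (-1.05, adjusted p = 0.0562) and with the chip batch as a random block (-1.01, adjusted p = 0.0572). The E16 call was also lost without either E16 testis array or E16 ovary replicate 1 (0.97 to 1.39 over the 14 fits, adjusted p up to 0.176); the mean over ages passed in all 14. The fall in ovary passed in 2 of those 14 fits (-1.29 to -0.91, adjusted p up to 0.351). Without the 4 arrays of discordant Xist, the 3 differences of Col9a1 were 1.37, 0.91 and -1.29 (adjusted p of 0.136, 0.0857 and 0.27), and without the 2 arrays of high actin ratio the E16 difference and the fall in ovary were 0.99 and -0.91 (adjusted p of 0.163 and 0.186). Its E16 ovary signals of 7 and 13.9 lie under the offset of 16, and the offset of 16 understates folds of dim probe sets.

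Col2a1, the chain of type II collagen that partners with type IX in cartilage, read 100 and 86, then 114 and 85.7, then 67.2 and 39.1 in testis, and 109 and 73.9, then 56.6 and 56.9, then 25.4 and 20.8 in ovary. By this probe set the groups overlapped at E13 and not at E14 or E16. By a second probe set they overlapped at every age. It read 76 and 46.2 in E14 testis and 31 and 53.4 in E14 ovary, and 49.2 and 46.2 in E16 testis and 46.3 and 20.9 in E16 ovary. By the brighter probe set, the difference between testis and ovary was 0.79 ± 0.33 at E16 (adjusted p = 0.333). From E13 to E16 in ovary it was -1.44 ± 0.33 (adjusted p = 0.0764), and -1.38 with the chip series as a block (adjusted p = 0.0269). The second probe set of Col2a1 gave -0.65 for the same step (adjusted p = 0.428). Cartilage markers (4 of 9 listed genes measured, none at 0 throughout) summed to 270 and 253 in E13 testis, 172 and 208 in E13 ovary, 149 and 134 in E16 testis, and 128 and 139 in E16 ovary. Hapln1, the link protein of cartilage, read 124 and 127, 92.9 and 115, 61.6 and 44.4, and 37 and 31.7 in those 4 groups. The lower sum at E16 in ovary came from Hapln1: Acan, the core protein of cartilage proteoglycan, read 41.1 and 49.2 in E13 ovary and 52.8 and 53.7 in E16 ovary, Comp 25.6 and 26.2 and then 25.2 and 37, and Cnmd 12.1 and 17.6 and then 12.6 and 16.6. The part of these markers in the differences of Col2a1 and Col9a1 was not tested.

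The remaining fibril-associated collagens did not pass in any comparison. Col12a1, which like type XIV binds fibrils, read 48.8 to 95.5 over all arrays and differed by -0.05 between testis and ovary at E16. Col9a2, the alpha2 chain of type IX, read 24.3 to 80 in the fresh gonads and 13.1 in 1 cultured array, and its sex difference at E16 was 0.05 (adjusted p = 0.979).

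**Figure D3:**
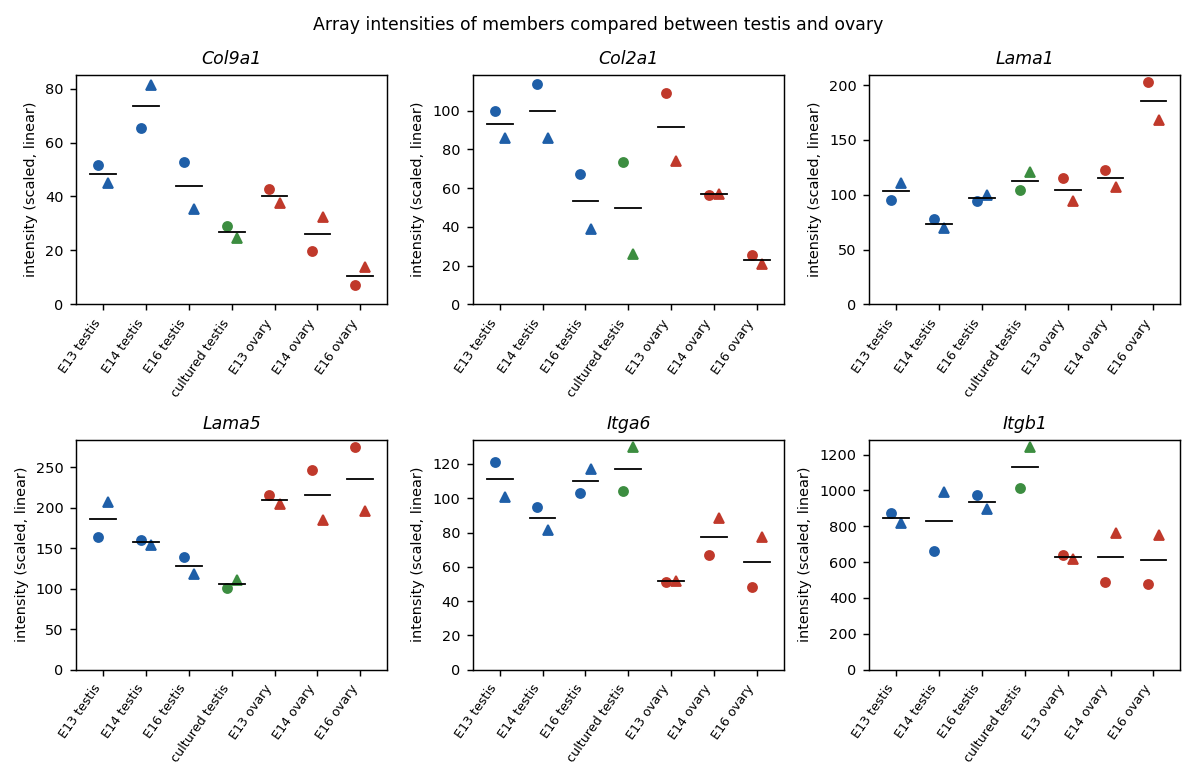
Each panel plots 1 gene, with scaled intensity on a linear axis from 0 against the 7 groups; circles are replicate 1, triangles replicate 2, and bars the mean of 2 arrays. Col9a1 and Itga6 are higher in the testis arrays and Lama1 in the ovary arrays of E16, and Lama1 and Lama5 each have their highest array in E16 ovary.

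The fibrillar collagens, which make the tensile fibres of connective tissue, included the probe sets of types I, III and V. Col1a1, the alpha1 chain of type I collagen, read 679 and 645, then 1013 and 876, then 1780 and 1512 in testis at E13, E14 and E16. In ovary it read 802 and 946, then 1444 and 459, then 1760 and 398. The testis arrays did not overlap between ages, while the 2 ovary arrays of E14 and of E16 lay on either side of every E13 array. The difference from E13 to E16 was 1.29 ± 0.59 in testis (adjusted p = 0.469) and -0.05 ± 0.59 in ovary (adjusted p = 0.997). Col1a2, the alpha2 chain, read 801 and 670 in E13 testis, 1568 and 1481 in E16 testis, 952 and 1022 in E13 ovary, and 1238 and 527 in E16 ovary. Its difference in testis was 1.04 ± 0.45 (adjusted p = 0.431). With the chip series as a block, the second probe sets of Col1a1 and Col1a2 passed from E13 to E16 in testis (1.60 and 1.34, adjusted p of 0.0186 and 0.028).

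Col3a1, whose product mixes with type I collagen in soft tissue, was nearly level: its arrays spanned 2321 to 3202, and its difference between testis and ovary over the ages was 0 ± 0.10. Col5a1 and Col5a2, the type V chains that set fibril diameter, read 192 to 488 and 686 to 1024, and their differences from E13 to E16 in testis were 0.54 (adjusted p = 0.505) and 0.16 (adjusted p = 0.852). The second probe set of Col5a1 differed by -0.02 for that step. By their brightest probe sets, 9 of the 10 fibrillar collagen genes had a higher mean in testis than in ovary at E16, and 0 passed. Their median was 0.44 (range -0.03 to 0.95), against 0.05 over all probe sets. The other probe sets gave -0.30 for Col5a1, -0.03 for Col11a1 and -0.13 for Col5a2. They gave 0.37 for Col1a1, 0.63 for Col1a2 and 0.41 for Col2a1. The signs of Col5a1 and Col11a1 thus depended on the probe set. At E13 the brightest probe sets of the same genes had 5 higher and 5 lower means (median -0.01).

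No collagen of the basement membrane network passed in any of the 13 comparisons. Col4a1 and Col4a2 encode the chains of the common type IV network and are transcribed away from each other from the 76 bases shown above. Col4a1 read 377 and 251, then 291 and 252, then 481 and 326 in testis, and 318 and 266, then 356 and 185, then 279 and 179 in ovary; its difference between testis and ovary at E16 was 0.78 ± 0.32 (adjusted p = 0.33). Col4a2 read 365 and 292 in E16 testis and 275 and 204 in E16 ovary, a difference of 0.44 ± 0.25 (adjusted p = 0.52). In both genes the E16 testis arrays were above the E16 ovary arrays. Col4a4, a chain of the kidney-type network, was dim at 9.2 to 35.7. Col4a5 read 139 to 226 in testis and 126 to 352 in ovary and differed by -0.50 ± 0.32 at E16, opposite in sign to the other 3 type IV genes. Of the 4 type IV genes, 3 were higher in testis at E16 (median 0.51) and 0 passed.

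Col15a1 and Col18a1 encode the multiplexins, proteoglycan collagens that link basement membranes to the matrix beneath. Col15a1 read 76.3 and 64 in E14 testis against 230 and 98.6 in E14 ovary (difference -0.97 ± 0.41, adjusted p = 0.601), and 0.32 ± 0.41 separated the sexes at E16. Col18a1 read 210 to 299 in testis and 130 to 296 in ovary. Col7a1, the anchoring fibril collagen, read 5.6 to 48.3, and Col26a1, a collagen first described in developing testis and ovary, read 123 to 218, with a difference of 0.38 between testis and ovary at E16 (adjusted p = 0.483). None of these 4 genes passed in any of the 13 comparisons.

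By their brightest probe sets, most laminin genes had lower means in testis than in ovary. Lama1 encodes the alpha1 chain of the embryonic laminin of early basement membranes. It read 95.4 and 111, then 77.5 and 69.9, then 94.7 and 99.9 in testis, and 115 and 94.2, then 123 and 107, then 203 and 168 in ovary. The sexes overlapped at E13 and did not at E14 or E16, and both E16 ovary arrays were above every other array. Lama1 was 1.77-fold lower in testis at E16 (-0.82 ± 0.18, adjusted p = 0.0423) and 1.38-fold lower over the 3 ages (-0.46 ± 0.10, adjusted p = 0.0407). From E13 to E16 its difference was 0.74 ± 0.18 in ovary (adjusted p = 0.0896) and -0.07 ± 0.18 in testis, and the difference between these, -0.81 ± 0.25, did not pass (adjusted p = 0.451).

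Within the same chip batch, Lama1 differed by -0.52 between the E14 arrays of testis and ovary and by -0.66 between the E16 arrays. Both calls sat close to the threshold. They were lost with an offset of 1 (-0.91 and -0.52, adjusted p of 0.0848 and 0.0654). With the chip series as a block they were lost as well (-0.76 and -0.40, adjusted p of 0.1 and 0.193), and so they were without the 4 arrays of discordant Xist (-0.95 and -0.49, adjusted p of 0.163 and 0.129) and without the 2 arrays of high actin ratio (-0.70 and -0.42, adjusted p of 0.229 and 0.112). Leaving out 1 array at a time, the E16 call held in 2 of 14 fits (-0.95 to -0.70, adjusted p up to 0.222; it held without either E14 ovary array) and the call over the ages in 4 of 14 (-0.50 to -0.42, adjusted p up to 0.135; it held without either cultured array, E14 ovary replicate 2 or E16 ovary replicate 2). The sign was negative in every one of these fits.

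Lama5, the alpha5 chain that replaces alpha1 in many later basement membranes, had a similar order of values. It read 164 and 207, then 160 and 154, then 139 and 118 in testis, and 216 and 204, then 247 and 185, then 275 and 196 in ovary. The E14 and E16 arrays did not overlap between the sexes. Its difference at E16 was -0.79 ± 0.21 (adjusted p = 0.0998) and over the ages -0.46 ± 0.12 (adjusted p = 0.0765). The E16 difference passed with the chip batch as a random block (-0.71, adjusted p = 0.0477) and did not with the chip series as a block. A dim second probe set of Lama5, at 7.1 to 28.7, went the other way, with 0.43 over the ages (adjusted p = 0.0877), so the direction of Lama5 depends on the probe set.

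Lama4, the alpha4 chain of vessels and mesenchyme, was higher in testis at E16, unlike Lama1 and Lama5, but did not pass. It read 100 and 58.4, then 102 and 96.3, then 207 and 200 in testis, and 120 and 86.9, then 140 and 51.1, then 134 and 45.5 in ovary. Both E16 testis arrays were above every ovary array. The difference between testis and ovary at E16 was 1.19 ± 0.43 (adjusted p = 0.258) and that from E13 to E16 in testis 1.24 ± 0.43 (adjusted p = 0.289). With the chip series as a block, Lama4 passed in both (1.67 and 1.72, adjusted p of 0.00926 and 0.0086), where 2.04% and 1.59% of all probe sets passed. Endothelial markers (10 of 12 measured, none at 0 throughout) summed to 984 to 1177 in the 6 testis arrays, with the highest value in E16 testis replicate 1, and to 792 to 1441 in ovary; their part in the result was not tested.

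The beta and gamma chains complete these trimers. Lamb1 read 172 to 330 in testis and 156 to 491 in ovary, Lamb2 59.6 to 122 in testis and 98.3 to 255 in ovary, and Lamc1 189 to 303 in testis and 203 to 363 in ovary. Lamb2, the beta2 chain, had the largest difference of the 3 over the ages, -0.63 ± 0.25 (adjusted p = 0.194). Lama2, the alpha2 chain of muscle and nerve, differed by -0.32 ± 0.13 over the ages (adjusted p = 0.218), and Lama3 read 13.1 to 54.7. The mean over the ages was lower in testis for 6 of the 8 laminin genes, of which 1 passed (Lama1), with a median of -0.25 against 0.05 over all probe sets. With the other probe sets of Lama5 and Lamc1, 4 of the 8 were lower (median 0.01). At E13, 7 of the 8 were lower (median -0.18) and 0 passed, or 5 of the 8 (median -0.08) with those other probe sets.

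Among the receptors, integrin alpha6 was the only one of the 13 chains that passed, in the mean over the ages between testis and ovary. Itga6 encodes the alpha6 chain, which pairs with beta1 or beta4 as a laminin receptor. It read 121 and 101, then 95 and 81.7, then 103 and 117 in testis, and 51.2 and 52, then 66.6 and 88.2, then 48.3 and 77.4 in ovary. The E13 and E16 arrays did not overlap between the sexes, and the E14 arrays did. Itga6 was 1.51-fold higher in testis over the 3 ages (0.59 ± 0.12, adjusted p = 0.0326), with differences of 0.91 ± 0.21 at E13 (adjusted p = 0.449), 0.17 ± 0.21 at E14 and 0.70 ± 0.21 at E16 (adjusted p = 0.172). A second, dimmer probe set of Itga6 gave 0.17 over the ages (adjusted p = 0.732).

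Itga6 differed by -0.09 within the chip batch shared by the E14 arrays, by 0.51 within that shared by the E16 arrays, and by 1.03 and 1.01 between the E13 arrays of series 3. Its call was lost with an offset of 1 (0.71, adjusted p = 0.0531), with the chip series as a block (0.51, adjusted p = 0.164), with quantile normalization (0.55, adjusted p = 0.0507), without the 4 arrays of discordant Xist (0.61, adjusted p = 0.105), and without the 2 arrays of high actin ratio (0.50, adjusted p = 0.0773). It held in 4 of the 14 fits that left out 1 array, those without either cultured array, E14 ovary replicate 2 or E16 ovary replicate 2 (0.50 to 0.68 over all 14, adjusted p up to 0.102).

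Itgb1, the beta1 chain that most matrix-binding alpha chains need as a partner, read 664 to 990 in the 6 testis arrays and 476 to 765 in the 6 ovary arrays. The ranges overlapped, and the difference over the ages was 0.48 ± 0.16 (adjusted p = 0.139; second probe set 0.41, adjusted p = 0.193). Itga1, a collagen receptor chain, read 52.6 and 35.2 in E16 testis and 21.9 and 4.8 in E16 ovary, a difference of 1.08 ± 0.31 that did not pass (adjusted p = 0.144). That of Itga1 passed with the chip batch as a random block (1.09, adjusted p = 0.0279) and with the replicate block (1.08, adjusted p = 0.0219). It did not pass with an offset of 1, with quantile normalization or with the chip series as a block. Without the 2 arrays of high actin ratio, which leaves 1 array of E16 ovary, it was 1.51. That array, of discordant Xist, gave the reading of 4.8, which lies under the offset of 16. Itga7, a laminin receptor chain of muscle, read 51.5 and 88.2 in E13 testis and 30.4 and 28.9 in E13 ovary (0.88 ± 0.39, adjusted p = 0.632), and its groups overlapped at E14 and E16; its 3 probe sets differed by 0.08, -0.11 and -0.76 from E13 to E16 in testis. Itga3, another laminin receptor chain, read 157 to 298 and differed by -0.26 at E16.

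Of the chains that bind other ligands, Itga8, the nephronectin receptor chain of kidney and smooth muscle, read 25.4 to 48.6 in testis and 3.9 to 26.6 in ovary and differed by 0.52 ± 0.18 over the ages (adjusted p = 0.155). Itga2b, the platelet chain, read 23.7 to 56.9 over all arrays, Itgb4, the beta partner of alpha6 in hemidesmosomes, 30.2 to 66.1, and Itgb5, a vitronectin receptor chain, 120 to 202. Itgad, Itgam and Itgb7, chains of white blood cells, had means of at most 21.9, with 25.7 for Itgam in cultured testis replicate 1 as its highest value. Itgae, the partner of beta7 on lymphocytes, read 94.3 to 217 and had a mean that was lower at E16 than at E13 in testis and higher in ovary. Of the 13 integrin chain genes, 11 were higher in testis at E13 (median 0.27, 0 passed), 10 at E14 (median 0.14, 0 passed) and 7 at E16 (median 0.19, 0 passed), against medians over all probe sets of 0.04, 0.02 and 0.05.

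Of the 3 caught symbols that are no integrin chains, Itgb1bp1, a cytoplasmic protein that binds the beta1 tail, read 156 to 234. Itgb3bp, also a centromere protein, read 271 to 426 in testis and 169 to 379 in ovary, and Itgb1bp2, a muscle chaperone, 11.5 to 38.1. None passed in any comparison.

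Col6a3 and Col14a1, which rose with age in fresh testis, were also higher in cultured testis than in fresh E13 testis; both comparisons use the fresh E13 testis arrays, so they are not independent. Cultured testis read 240 and 233 for Col6a3 and 123 and 114 for Col14a1, against 64.6 and 42.7, and 60.9 and 37.9, in fresh E13 testis. The groups did not overlap for either gene. Col6a3 was 3.67-fold higher (1.88 ± 0.40, adjusted p = 0.0465) and Col14a1 2.09-fold higher (1.06 ± 0.23, adjusted p = 0.0497). Col6a2 read 138 and 151 (difference 2.13 ± 0.63, adjusted p = 0.153) and Col6a1 188 and 228 (0.98 ± 0.40, adjusted p = 0.335). The second, dimmer probe set of Col6a2 differed by -0.01. With the chip series as a block, 7 member probe sets were higher, for Col6a1, Col6a2, Col6a3, Col14a1, Lama4 and the second probe sets of Col1a1 and Col1a2 (1.20 to 2.92, adjusted p up to 0.0372), where 2.38% of all probe sets passed.

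Both unblocked calls were near the threshold: that of Col6a3 held in 4 and that of Col14a1 in 2 of the 14 fits that left out 1 array (1.65 to 2.10 and 0.80 to 1.32, adjusted p up to 0.219 and 0.243), the latter without either E16 testis array and the former without any 1 of the E14 and E16 ovary arrays. With an offset of 1 both were lost (2.15 and 1.28, adjusted p of 0.0892 and 0.0886), and that of Col14a1 was lost with the chip batch as a random block (1.07, adjusted p = 0.0501). Without the 4 arrays of discordant Xist they were 2.08 and 1.27 (adjusted p of 0.237 for each), and without the 2 arrays of high actin ratio 1.89 and 1.11 (adjusted p of 0.158 and 0.231). Macrophage and white blood cell markers (13 of 14 measured, none at 0 throughout) summed to 1026 and 957 in cultured testis and 621 and 620 in fresh E13 testis, and smooth muscle markers to 1904 and 2100 against 1624 and 1658. Fetal Leydig cell markers summed to 3460 and 4469 in culture against 224 and 223, and Sertoli cell markers to 3499 and 4192 against 1197 and 961. Red blood cell markers summed to 9256 and 1045 in culture against 6540 and 8424, so the second cultured array was far below the other 3. The part of these markers in the result was not tested.

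Against fresh E16 testis, which is as old as the cultured testis by days, the cultured testis differed by -0.33 ± 0.40 for Col6a3, -0.22 ± 0.40 for Col6a1, 0.38 ± 0.63 for Col6a2 and -0.43 ± 0.23 for Col14a1. Each cultured array shared its chip batch with a fresh E16 testis array and with neither fresh E13 testis array. A likeness to fresh E16 testis and a difference from fresh E13 testis therefore cannot be told apart from the chip batch. Col9a1 read 29.1 and 24.6 in culture, below every fresh testis array (difference from E13 -0.59 ± 0.22, adjusted p = 0.292). Lama5 read 101 and 111, also below every fresh testis array (-0.72 ± 0.21, adjusted p = 0.149). Itga6 (104 and 130) and Lama1 (104 and 121) each had 1 cultured array within the range of the fresh testis and 1 just above it. The median of the 53 genes was 0.10 against fresh E13 testis and -0.00 against fresh E16 testis, with medians over all probe sets of -0.01 and 0.02.

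**Figure D4:**
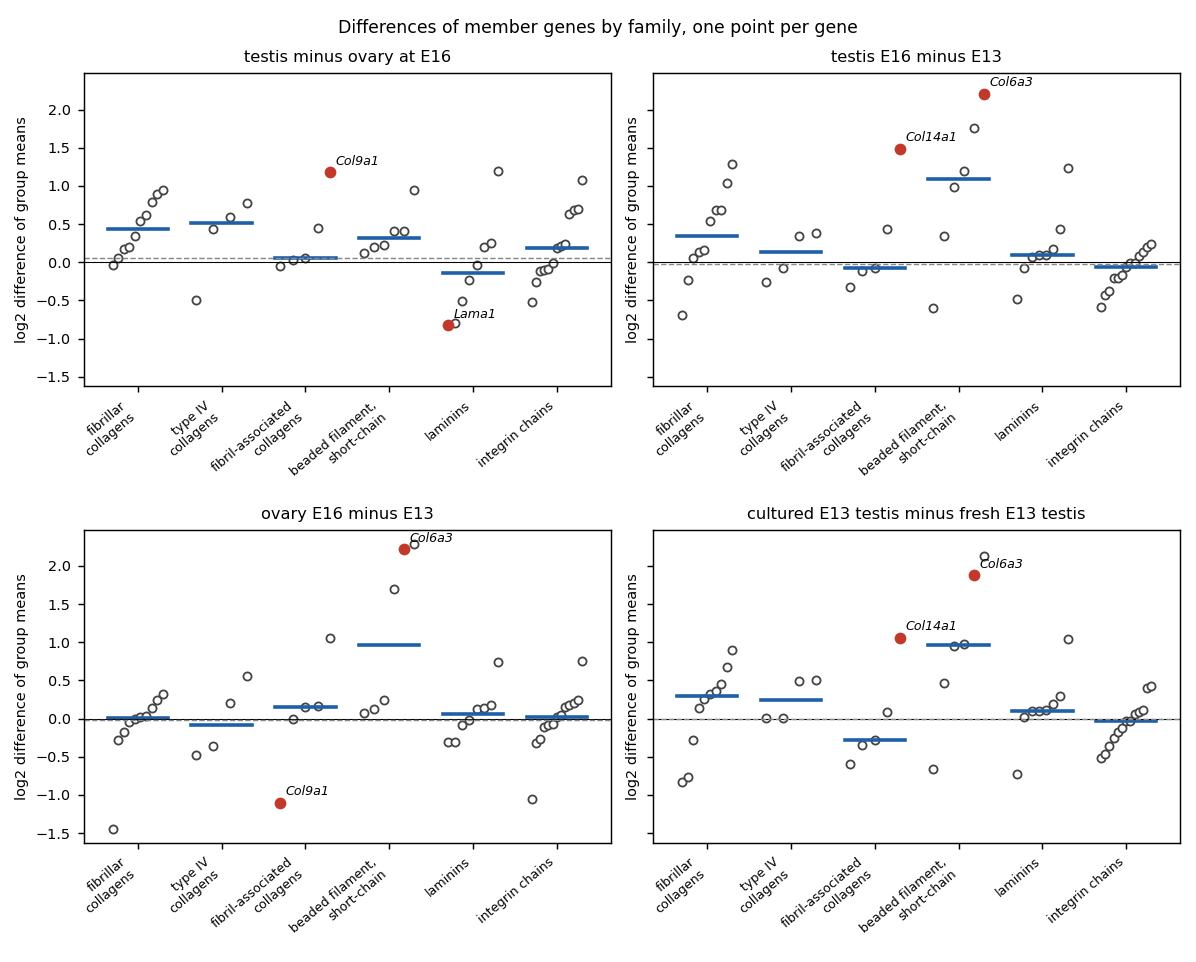
Each point is 1 gene, with its log2 difference of group means on the vertical axis and its family on the horizontal axis, in 4 comparisons; filled red points passed, blue bars are family medians and the dashed line is the median of all probe sets. By the brightest probe sets, the beaded filament and short-chain class has the highest median in the age and culture panels (1.09, 0.97 and 0.97). The dimmer probe set of Col6a2, at -0.16, -0.08 and -0.01 in those panels, would lower these medians. The laminins have the lowest median of the 6 classes drawn in testis minus ovary at E16. It is -0.14 as drawn, by the brightest probe sets, and 0.08 with the other probe sets of Lama5 and Lamc1.

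Many matrix members differed between the 2 ovary pools of E14 and of E16. In E14 ovary, 12 of 72 member probe sets (16.7%) were at least 2-fold higher in replicate 1 than in replicate 2, where 3.07% of all probe sets were; in E16 ovary, 10 (13.9%) were, against 3.17%. In E13 ovary, whose arrays share a chip series, the count was 0, against 0.454% of all probe sets. In E13 testis, whose replicate 1 lies in series 3 and replicate 2 in series 1, the count was 4 (5.56%), against 2.19%. At least 2-fold higher in replicate 2 were 4 member probe sets (5.56%) in E14 ovary, against 2.12%, and 4 (5.56%) in E16 ovary, against 1.83%. Among the 34 genes with a mean of at least 50, the 8 that were higher in E14 ovary replicate 1 were Col1a1, Col1a2, Col6a2, Col6a3, Col15a1, Lama4, Lamb1 and Lamb2, and the 8 in E16 ovary were Col1a1, Col1a2, Col6a1, Col6a2, Col6a3, Col18a1, Lama4 and Lamb2. The endothelial marker sum was 1441 and 792 in the E14 ovary arrays and 1233 and 873 in the E16 ovary arrays; its part in these differences was not tested. Replicate 1 of both groups lies in chip series 3 and replicate 2 in series 1, so the pool and the chip series cannot be told apart. The E16 ovary arrays also differed in the 3′ to 5′ actin ratio (3.34 in replicate 1, 1.64 in replicate 2) and in Xist (152 and 12.8). These cannot be told apart from the pool and the chip series either. Comparisons with the ovary of these ages carry this spread for types I and VI collagen, Lama4 and Lamb2.

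**Figure D5:**
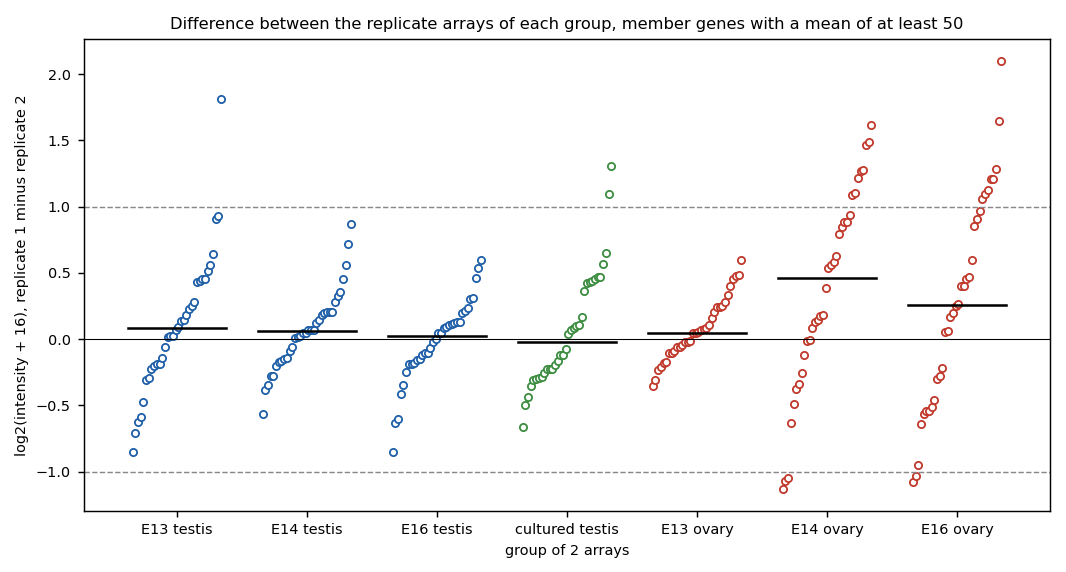
Each point is 1 of the 34 member genes with a mean of at least 50, with log2(intensity + 16) of replicate 1 minus replicate 2 on the vertical axis, by group; black bars are medians and dashed lines mark 2-fold. The medians are 0.47 in E14 ovary and 0.26 in E16 ovary and between -0.02 and 0.08 in the other 5 groups.

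Genes that act with the members were followed in 5 lists. Of 17 measured genes for collagen folding, crosslinking and processing, 0 passed in any comparison; the lowest p values were those of P4ha1, a prolyl hydroxylase chain (-0.80 ± 0.21 in culture, adjusted p = 0.109), and Lox, the crosslinking lysyl oxidase (0.68 ± 0.18 between testis and ovary over the ages, adjusted p = 0.0763). At an unadjusted p under 0.05, 6 of the 17 stood out over the ages, 3 in each direction, where 20% of all probe sets did. Of 10 other basement membrane genes, 0 passed; Tinagl1 differed by 0.81 ± 0.19 between testis and ovary at E16 (adjusted p = 0.0604) and Smoc1 by -0.65 ± 0.18 over the ages (adjusted p = 0.0885). At E16, 4 of the 10 had an unadjusted p under 0.05, 3 higher and 1 lower in testis, where 13% of all probe sets did. Of 11 other integrin ligands, Postn (periostin, a ligand of alphaV integrins) was lower in testis at E16 (255 and 253 against 1247 and 1518; -2.37 ± 0.25, adjusted p = 0.00142), at E14 (-1.74, adjusted p = 0.0292) and over the ages (-1.43, adjusted p = 0.000773). The sex difference of Postn was larger at E16 than at E13 (-2.19 ± 0.36, adjusted p = 0.0496), and cultured testis, at 646 and 1085, was above fresh E16 testis (1.66 ± 0.25, adjusted p = 0.0447). Mfge8, a bridging protein with an RGD motif, was lower over the ages (-0.49 ± 0.11, adjusted p = 0.0458). In culture, Vcam1, the ligand of alpha4 integrins, read 184 and 149 against 37.1 and 19.8 in fresh E13 testis (2.06 ± 0.22, adjusted p = 0.00128), and Spp1 (osteopontin) 103 and 99.4 against 23.1 and 47.3 (1.24 ± 0.24, adjusted p = 0.0317).

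Of 19 matrix proteases and inhibitors, Mmp2 (gelatinase A, 0.71 ± 0.14, adjusted p = 0.0229) and Serpine2 (0.61 ± 0.11, adjusted p = 0.0177) were higher in testis over the ages. Plat, the tissue plasminogen activator, was higher in testis at E16 (0.88 ± 0.19, adjusted p = 0.042) and fell in ovary from E13 to E16 (-1.14 ± 0.19, adjusted p = 0.0203). Of 15 adaptor genes, Vcl (vinculin, which ties integrins to actin) was higher in testis at E16 (1.43 ± 0.30, adjusted p = 0.0401) and over the ages (0.94 ± 0.17, adjusted p = 0.0194). Cav1 (caveolin 1) rose from E13 to E16 in testis (1.14 ± 0.20, adjusted p = 0.0221) and in ovary (1.05 ± 0.20, adjusted p = 0.0365).

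Of these 16 calls of related genes, 3 passed without the 4 arrays of discordant Xist, all of Postn: lower in testis at E16 and over the ages, and higher in cultured than in fresh E16 testis. Without the 2 arrays of high actin ratio 9 passed, with the chip series as a block 8, with an offset of 1 6, and with quantile normalization and with the replicate block 14 each. The calls of Postn at E16 and over the ages and that of Vcam1 in culture held in all 14 fits that left out 1 array. Each of the other 13 was lost in at least 4 of those fits. The calls of Mfge8 and of Plat at E16 held in 2 of the 14 fits and that of Vcl at E16 in 3. Those of Serpine2, of Cav1 in testis and of Plat in ovary held in 10. That of Postn between cultured and fresh E16 testis held only without cultured testis replicate 1. The sign was kept in every alternative.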

How the data were processed

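RNA of 14 gonad pools (7 groups of 2) was measured on 1 Affymetrix array each, and labelled by standard procedures, per the labels' protocols. The authors deposited 1 linear intensity per probe set and array; the summarising software is not given in the sources used here, and the values had been scaled (2% trimmed mean of 125 on all 14 arrays). Of 15923 probe sets, 57 controls were left out. No value was normalized again. Array medians were 59.5 to 69.1.

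The log2(intensity + 16) of the arrays was fitted on 7 groups by limma 3.58.1 (R 4.3.3; functions lmFit, contrasts.fit and eBayes; 7 residual and 4.16 prior degrees of freedom), and p-values were adjusted by Benjamini-Hochberg over 15866 probe sets in each of 13 comparisons; the steps were tested on simulated data. Alternatives were an offset of 1, quantile normalization, a mean of at least 50, chip series as a fixed and chip batch as a random block (consensus correlation 0.38), a replicate block, each array left out, the 4 arrays of discordant Xist left out and the 2 of high actin ratio left out. Members and lists were chosen with earlier results of these data known. Named were members that passed, genes whose mean was above the median of their list, and up to 2 per list with the largest differences; of the related lists, genes that passed and up to 2 with the lowest p; Lama2, Lama3, Col4a5, Col8a1 and Col10a1 were added after their values were seen. The 53 gene identifiers were all found in a RefSeq table (GRCr8), which changed 0 symbols.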

Additional observations from a re-analysis of the deposited data

Results flagged for a closer look

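Col1a2 differed in opposite directions between testis and ovary at E13 and at E16, with every array of 1 sex on the same side at each age. The log2 difference was 0.90 at E16 and -0.42 at E13; the change between the ages was 1.32 with an unadjusted limma p of 0.0621 and an adjusted p of 0.777, so it did not pass.

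Itgae moved in opposite directions from E13 to E16 in the 2 sexes, with both E16 arrays under both E13 arrays in testis and above both in ovary. The log2 difference was -0.58 in testis and 0.25 in ovary; the difference between them was -0.83 with an unadjusted limma p of 0.0424 and an adjusted p of 0.746, so it did not pass either.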

How the results depend on the processing

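The count of member probe sets that passed moved with the settings, while 0 values changed sign among those called. The differences not called in the reported setting were computed 14916 times, over the alternatives that tested them and the genes' other probe sets: 14877 stayed uncalled, 39 were called with the same sign and 0 with the opposite sign.

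Testis minus ovary at E13 had 0 members and 1 with the chip series as a fixed block; at E14 it had 0 and 1 with the chip batch as a random block. At E16, 2 members became 1 with an offset of 1, 1 among the 45 with a mean of at least 50, 5 with the batch block, 0 without the 4 arrays of discordant Xist and 1 without the 2 of high actin ratio. Col9a1, with a mean of 38.5, was left untested by the filter on the mean, at E16 and in the other comparisons. Over the ages, 3 became 1, 0 and 1 with the offset of 1 and in those last 2 settings. With the series block different genes passed: Col6a2 and Lama4 in place of Col9a1 and Lama1 at E16, and Col6a1, Col6a2, Col6a3 and Lama4 in place of Col9a1, Itga6 and Lama1 over the ages. From E14 to E16 in testis 0 became 1, and from E13 to E14 in ovary 0 became 1, with the series block. From E13 to E16 in testis, 2 became 1 with an offset of 1, 7 with the series block and 0 without the Xist arrays. In ovary, 2 became 0 with an offset of 1, 1 with quantile normalization, 4 among probe sets with a mean of at least 50, 6 with the series block, 1 with the batch block, 5 with the replicate block, 0 without the Xist arrays and 0 without the actin arrays. In culture, 2 became 0, 7, 1, 0 and 0 with the offset of 1, the series block, the batch block, and without the Xist and the actin arrays. The cause was not tested, and the settings that leave out arrays also have fewer degrees of freedom. The share of all probe sets that passed moved as well. With the series block it was 2.04% at E16, against 1.74% without a block, and 1.38% over the ages, against 2.31%. From E13 to E16 it was 1.59% in testis, against 0.945%, and 1.27% in ovary, against 0.889%. In culture it was 2.38%, against 1.39%. With the replicate block the ovary share was 1.74%. Nothing particular to the members is read from these counts.

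Leaving out 1 array at a time gave 0 to 2 members at E16, 1 to 5 over the ages, 0 to 2 from E13 to E16 in testis and in ovary, 0 to 1 in culture, and 0 in the other 8 comparisons.

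The deviations of replicate 1 from its group mean were correlated between groups over all probe sets. Of 21 pairs of groups, 15 correlated above 0.1 (-0.0534 to 0.53, median 0.167), so same-numbered arrays tended to deviate together. In 6 of the 7 groups, all but E13 ovary, replicate 2 lies in chip series 1 and replicate 1 does not, so the number largely follows the series. The numbers were not taken as pairing the pools in the reported setting, and the replicate block served as an alternative. With the replicate block, all 11 calls held, and Itga1 (1.08, adjusted p = 0.0219 at E16; -1.05, adjusted p = 0.0315 in ovary), Col2a1 (-1.44, adjusted p = 0.0161), Col6a2 (2.29, adjusted p = 0.0476), the dim probe set of Lama5 (0.43, adjusted p = 0.0412) and the second of Col14a1 (1.16, adjusted p = 0.0423) passed as well.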
